A study of Mus musculus with 4 samples.

Results

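The genes of protein folding in the endoplasmic reticulum (ER) and of the unfolded protein response (UPR) were followed in mouse T helper cells treated with inhibitors of the kinase CK2. The set held 36 genes, chosen by name among the 37583 features of the deposited tables, and all 36 were found under 1 feature each. Of these, 35 had at least 20 reads in each inhibitor and control pair and entered every comparison. The rule names the genes and uses no measured value apart from that read minimum, but the names were put together with earlier results of these data known. At the edge of the minimum stood Ero1lb, which entered with 12, 14, 12 and 14 reads in the control for DMAT, DMAT, the control for CX4945 and CX4945, and Derl3, which did not enter with 3, 5, 1 and 5.

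Proteins bound for the cell surface or for secretion, such as cytokines and their receptors, enter the ER through the Sec61 channel and fold there with the help of chaperones, lectins and disulfide isomerases. When unfolded protein builds up, the sensors IRE1 (gene Ern1), ATF6 and PERK start the UPR: IRE1 splices the Xbp1 messenger, ATF6 is cut to release a transcription factor, and both raise chaperone and degradation genes. Activated lymphocytes enlarge their ER as they begin to secrete, and plasma cells depend on Xbp1 for it.

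Each of the 4 libraries came from C57BL/6 spleen: naive CD4+ T cells were kept for 24 h on plates coated with antibodies to CD3 and CD28. All cultures received IL-1β, IL-6 and IL-23 at 10, 10 and 20 ng/ml, with neutralising antibodies to IFN-γ and IL-4 at 10 µg/ml each, a Th17 condition that the labels call aTh17. One library received 1.5 µM DMAT, another received 1 µM CX4945, both inhibitors of CK2, a serine/threonine protein kinase, and the titles name a separate control without inhibitor for each. Each group was thus 1 library, the labels do not say whether the controls received a solvent, and nothing says how many animals a culture came from. The libraries held between 2056635 and 2772525 exon reads. All 6 CD4+ T cell markers were detected, with summed levels between 1780 and 1910 CPM (exon reads scaled to library size). Of 8 B and plasma cell markers, Ms4a1 and Cd79b were at 0 in every library and the list summed to between 5.4 and 11.4 CPM, mostly Sdc1, with Cd79a at 1 read at most. The 3 NK cell markers and 5 erythroid markers were at 0 throughout, 6 myeloid markers summed to between 2.19 and 4.42 CPM, 4 dendritic markers to between 0 and 1.47 CPM, and 2 CD8 markers to between 2.36 and 4.91 CPM.

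Many genes of this set are known targets of ATF6 and XBP1, which bind an ER stress response element (ERSE) in the promoter. The promoters of the members were therefore searched for it. RefSeq promoter windows (GRCm38.p6, 250 bases before to 50 after the gene start) were found for 30 of the 36 members. The ERSE was searched as CCAAT and CCACG with 9 free bases between them, its variant ERSE-II as ATTGG and CCACG with 1 free base between them, and the XBP1 element UPRE as TGACGTGG, all as exact matches on both strands. The ERSE stood in 10 of the 30 members (33.3%) and in 37 of all 27025 genes with a window (0.137%). ERSE-II stood in 2 of the 30 (6.67%) and in 12 of all genes (0.0444%), and the UPRE in 0 of the 30 and in 193 of all (0.714%). No matches in the members overlapped. These shares describe letters in a window and were not tested. The members were named as genes of this response, many of them known targets, so a high share was likely before the search. The elements are shown on the strand that reads as the consensus, with the fixed letters in capitals and the free bases in lower case.
Hspa5 (chr2:34772025-34772043): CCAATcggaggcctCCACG
Hsp90b1, first (chr10:86705638-86705656): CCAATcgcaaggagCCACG
Hsp90b1, second (chr10:86705533-86705551): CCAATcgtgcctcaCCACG
Calr (chr8:84847075-84847093): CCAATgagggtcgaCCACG
Canx (chr11:50325800-50325818): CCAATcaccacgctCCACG
Creld2 (chr15:88819520-88819538): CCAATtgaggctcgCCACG
Dnajc3 (chr14:118937827-118937845): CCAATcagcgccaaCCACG
Pdia6 (chr12:17266491-17266509): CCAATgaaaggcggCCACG
Syvn1 (chr19:6046532-6046550): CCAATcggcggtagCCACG
Ero1lb (chr13:12565682-12565700): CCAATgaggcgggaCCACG
Derl3 (chr10:75893242-75893260): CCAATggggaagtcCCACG
Herpud1, ERSE-II (chr8:94386377-94386387): ATTGGgCCACG
Dnajb11, ERSE-II (chr16:22857852-22857862): ATTGGcCCACG
The element of Hspa5 began 65 bases before the gene start and that of Syvn1 44 bases before it, while the pair in Hsp90b1 began 212 and 107 bases before. The ERSE-II of Dnajb11 was the only match after the start. Hspa5, Hsp90b1 and Herpud1, whose levels are taken up again among the results, are shown with their whole windows, 5′ to 3′ on the gene's strand, with the elements in capitals.
Hspa5 (chr2:34771840-34772139, plus strand): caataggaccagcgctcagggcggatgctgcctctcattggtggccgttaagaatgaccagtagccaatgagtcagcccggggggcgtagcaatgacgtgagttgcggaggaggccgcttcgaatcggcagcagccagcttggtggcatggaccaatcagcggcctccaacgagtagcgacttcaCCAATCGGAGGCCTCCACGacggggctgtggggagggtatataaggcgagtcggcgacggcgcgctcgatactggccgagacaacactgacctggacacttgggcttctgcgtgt
Hsp90b1 (chr10:86705395-86705694, minus strand): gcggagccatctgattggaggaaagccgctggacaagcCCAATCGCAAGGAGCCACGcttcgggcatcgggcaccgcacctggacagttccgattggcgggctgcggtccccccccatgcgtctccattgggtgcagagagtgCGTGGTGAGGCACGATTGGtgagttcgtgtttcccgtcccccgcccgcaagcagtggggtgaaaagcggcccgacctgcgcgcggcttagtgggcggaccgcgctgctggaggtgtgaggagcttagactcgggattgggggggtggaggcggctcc
Herpud1 (chr8:94386179-94386478, plus strand): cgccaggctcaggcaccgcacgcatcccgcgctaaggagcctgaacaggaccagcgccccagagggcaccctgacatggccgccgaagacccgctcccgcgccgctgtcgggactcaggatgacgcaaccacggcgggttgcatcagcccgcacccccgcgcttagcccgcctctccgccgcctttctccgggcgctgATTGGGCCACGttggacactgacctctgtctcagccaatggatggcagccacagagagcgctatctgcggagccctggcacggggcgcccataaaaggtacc

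In control and inhibitor libraries alike, the members with the most RNA per length were chaperones and isomerases, and the sensor gene Ern1 was near the low end. The 36 genes took 0.739% of all exon reads in the control for DMAT (95% exact binomial interval 0.729 to 0.749), 0.697% with DMAT (0.687 to 0.707), 0.69% in the control for CX4945 (0.68 to 0.701) and 0.706% with CX4945 (0.695 to 0.718). The control for DMAT thus stood highest, and both inhibitor libraries lay between the controls. Per length, as RPKM (exon reads scaled to exon length and library size) averaged over the 4 libraries, the most abundant member was Calr (calreticulin, a lectin chaperone) at 268, followed by Hspa5 (BiP, the main ER chaperone) at 215. Ppib (cyclophilin B, a prolyl isomerase), P4hb (protein disulfide isomerase), Hsp90b1 (GRP94) and Pdia3 (ERp57) came next, at 190, 170, 168 and 156. At the low end were Ern1 at 1.48, Ero1lb, an oxidase that renews disulfide isomerases, at 1.29 and Derl3, a channel protein of ER-associated degradation, at 1.11. Atf6 stood at 16.0 and Xbp1 at 14.3, a difference within the range of Atf6 over the libraries.

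**Figure D1:**
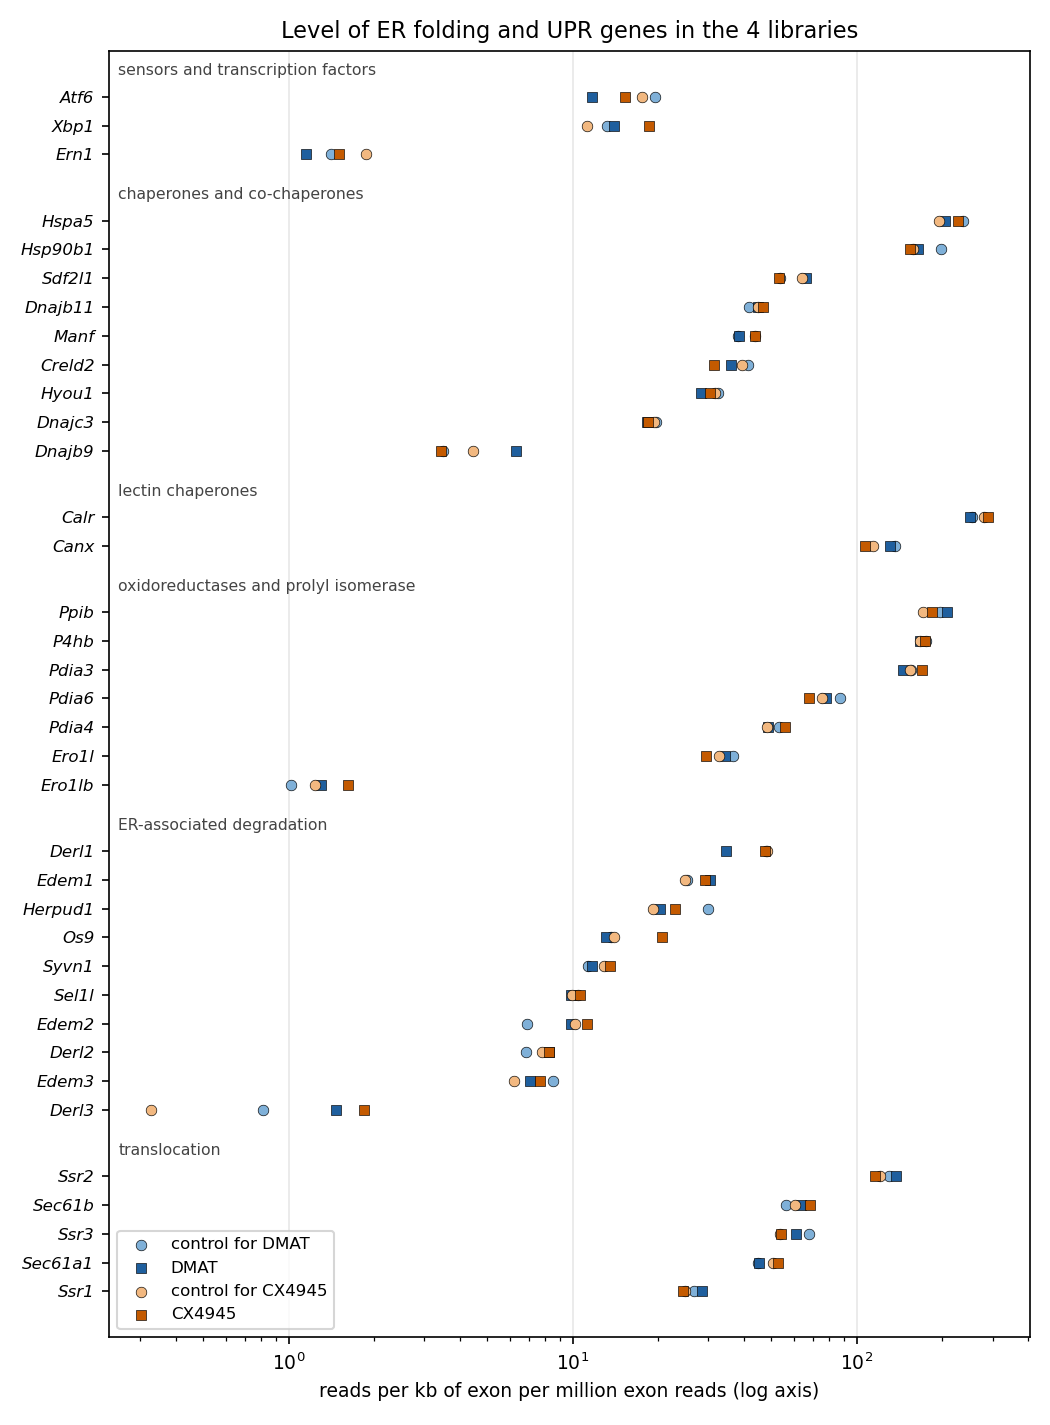
Level of each member in the 4 libraries, in RPKM on a log axis, grouped by role and ordered by mean level within a role. Circles are controls and squares inhibitor libraries. The 4 points of most genes lie close together beside the differences between genes, from Calr at 268 to Derl3 at 1.11.

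Set against its own control, DMAT left the set near its control level. The median log2 ratio of CPM over the 35 members was -0.06, against 0.00 over all 9649 genes, with 20 members lower and 15 higher, where 49.4% and 50.6% of all genes were. The summed reads of the members were at 0.935 of the control (95% counting interval 0.917 to 0.954). At least 1.5-fold lower was 1 member, Atf6, where 4.85% of all genes were, and 1.5-fold higher was 1 member, Dnajb9, where 4.54% were, in all 2 of 35 against 9.39%. At 2-fold 0 of 35 members were lower or higher, where 2.39% of all genes were. Of the members, 24 of 35 lay within 1.2-fold of the control, and 65.4% of all genes did. Among genes with at least 200 reads in the pair, a comparison added after the data were seen, 1 of 31 members was past 1.5-fold either way and 2.22% of all such genes.

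With CX4945 the set also stayed near its control, with more members above it. The median log2 ratio was 0.05, again against 0.00 over all 9358 genes, with 15 members lower and 20 higher, where 49.4% and 50.6% of all genes were. The summed reads were at 1.03 of the control (1.01 to 1.06). Xbp1 was 1.5-fold higher, 1 of 35 members where 4.01% of all genes were, and 0 members were 1.5-fold lower, where 4.21% were, in all 1 of 35 against 8.22%. Among genes with at least 200 reads it was 1 of 30 against 1.36%. At 2-fold 0 of 35 members were lower or higher, where 1.81% of all genes were. Within 1.2-fold of the control lay 28 of 35 members and 66.6% of all genes.

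The controls differed from each other about as much. For the control for CX4945 over that for DMAT the median log2 ratio of the members was -0.03, with 21 lower and 14 higher where 50.7% and 49.3% of all genes were. The summed reads were at 0.933 (0.914 to 0.953), and 27 of 35 members lay within 1.2-fold, as did 65.5% of all genes. Herpud1 was the 1 member at least 1.5-fold lower, where 4.9% of all genes were, and 0 were that much higher, where 4.07% were, in all 1 of 35 against 8.97%. Among genes with at least 200 reads it was 1 of 31 against 1.99%, and at 2-fold 0 of 35 against 2.28%. The shift of the summed reads thus had the same sign and nearly the same size with DMAT and between the controls, a pair that shares the control for DMAT. A change in how many cells of a kind were present and a change in RNA per cell cannot be told apart in such bulk libraries.

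**Figure D2:**
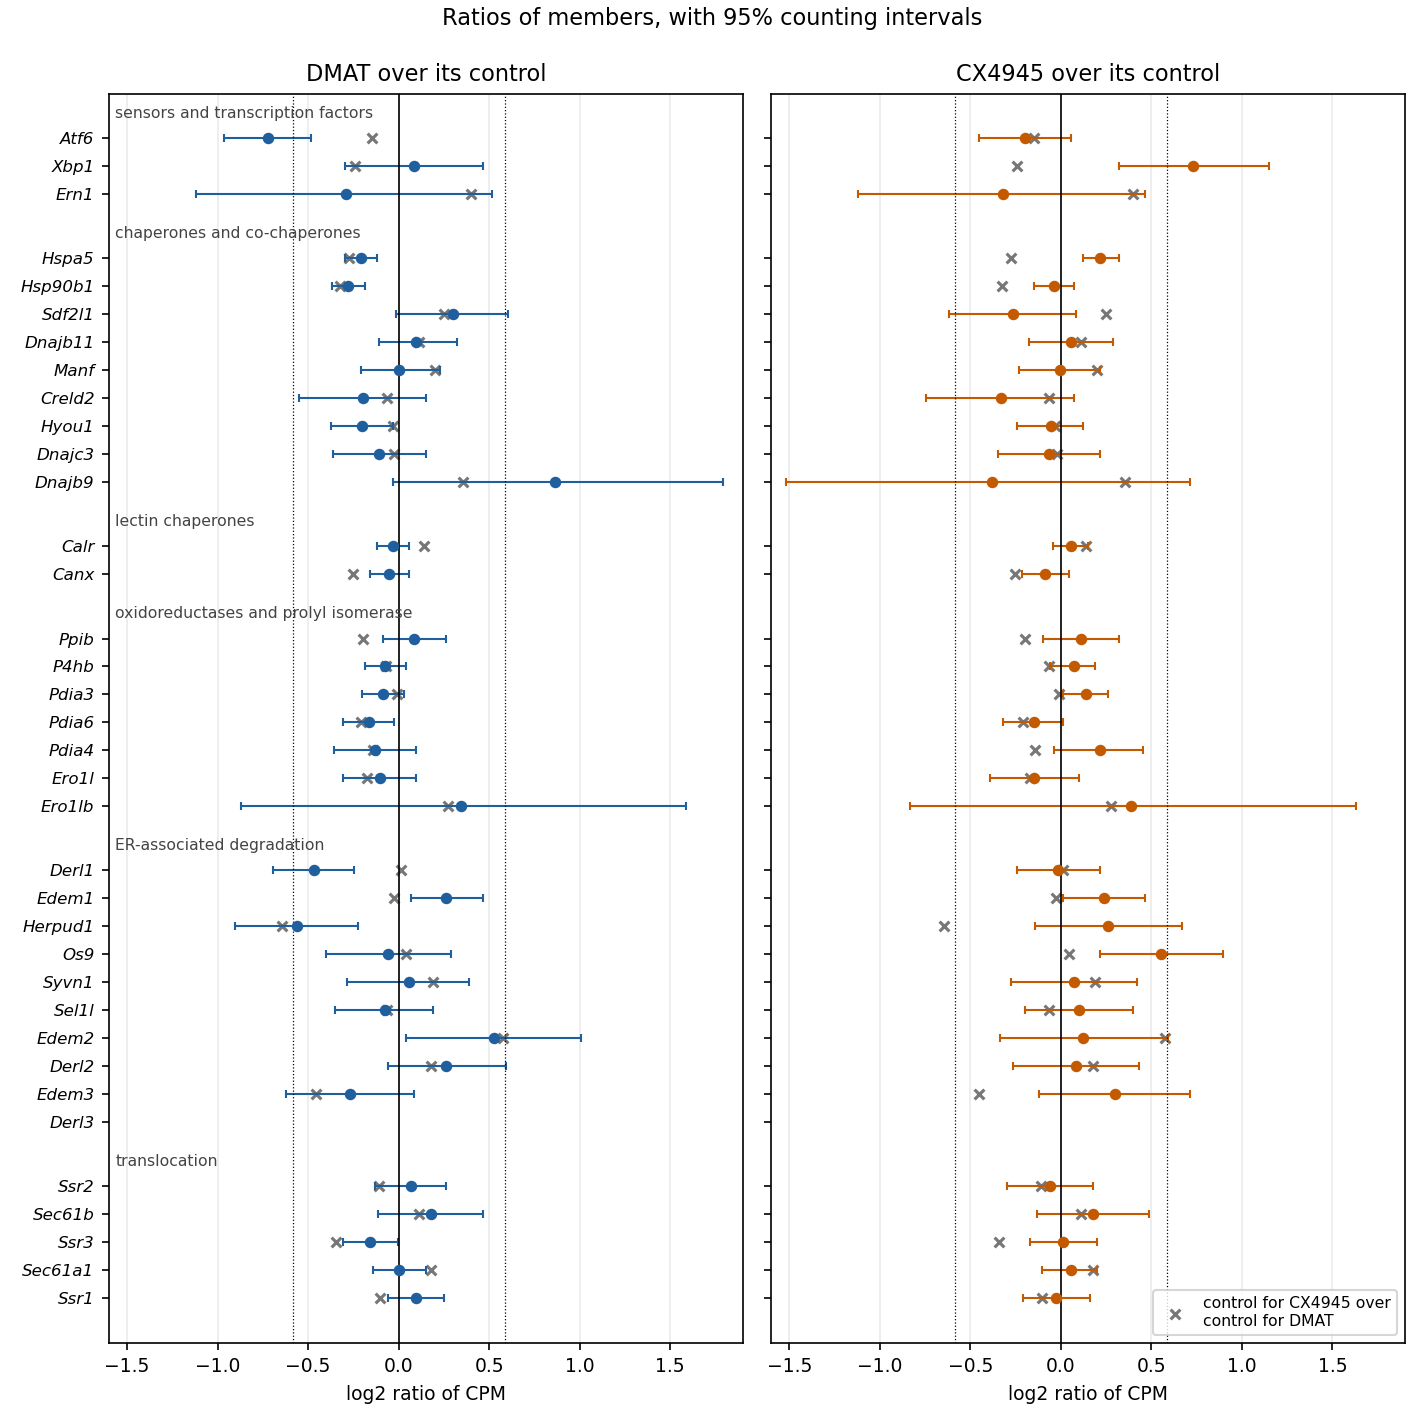
Log2 ratio of CPM for each member that entered the pair, DMAT over its control on the left and CX4945 over its control on the right, with 95% counting intervals and no prior count. Dotted lines mark 1.5-fold and grey crosses the control for CX4945 over that for DMAT. The members of both panels crowd around 0, with Atf6 below the lower line and Dnajb9, on few reads, above the upper line for DMAT, and Xbp1 above it for CX4945.

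**Figure D3:**
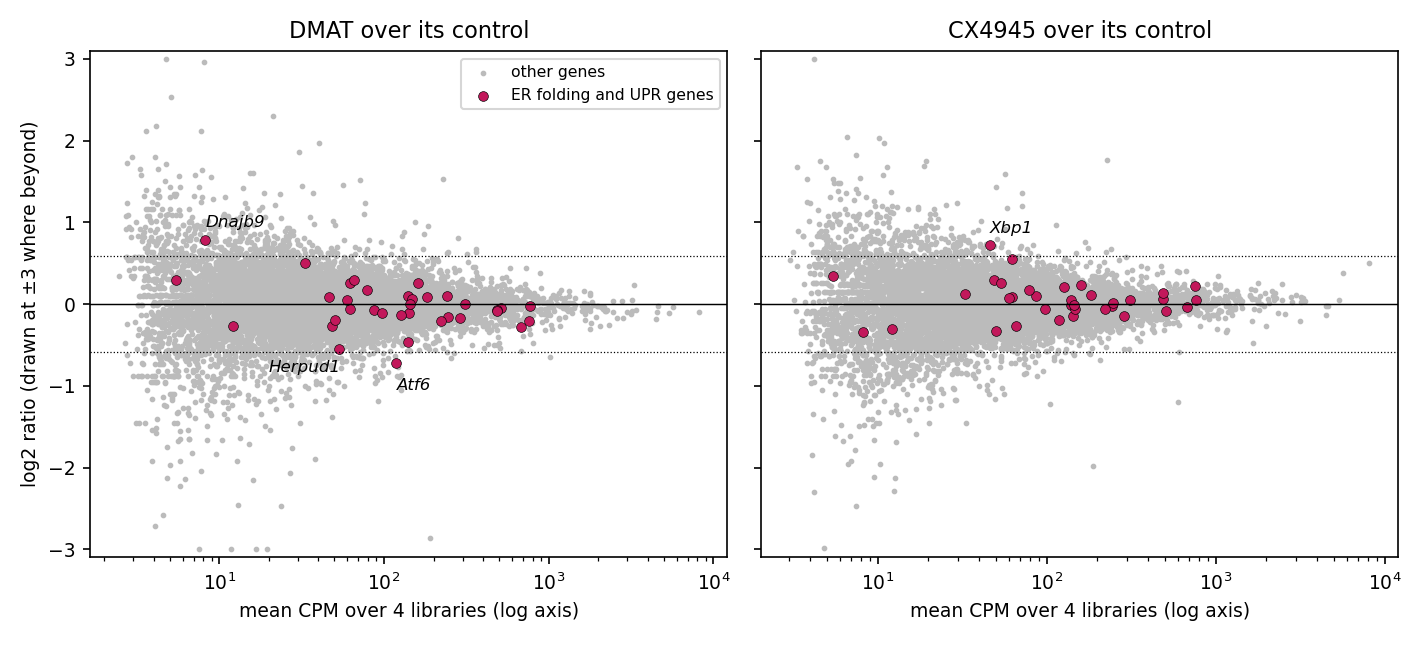
Log2 ratio of every gene that entered each pair against its mean CPM on a log axis, with the ER folding and UPR genes in colour and dotted lines at 1.5-fold. The spread narrows as CPM rises, and most members lie inside the cloud of other genes of like level, with Atf6 near its lower edge for DMAT (ratios beyond 3 are drawn at 3).

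Both pairs were then fitted together, since the labels class both treated libraries as CK2 inhibitor and both others as control. The titles alone set the pairs, and treating a pair as a block assumes that its libraries belong together. Of the 35 members 0 passed (edgeR quasi-likelihood with the pair as a block, Benjamini-Hochberg (BH) adjusted over 9262 genes), and 0 passed with DESeq2. Over all genes 0.95% passed, 35 that rose (0.378%) and 53 that fell (0.572%), and 3 passed with DESeq2. At an unadjusted p under 0.05 stood 3 members, Atf6, Edem1 and Xbp1, or 8.57%, where 7.75% of all genes did. The joint log2 fold changes of the members ran from -0.47 to 0.40 with a median of 0.01, and 25 of 35 were smaller than 0.2 in size, as were 66.7% of all genes. Their standard errors had a median of 0.12 and ran from 0.08 to 0.47, so a change of the size seen in Atf6 could not have been told from 0 for the least abundant members. Only 1 residual degree of freedom per gene remained, so that the spread came mostly from other genes. Of the members 10 were lower with both inhibitors and 10 higher with both, where 25.8% and 26.8% of all genes were. In 5 members both inhibitor libraries were below both controls and in 5 above, or 14.3% each, where 15.0% and 14.8% of all genes were.

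Of the sensors and transcription factors, Atf6 was lower and Xbp1 higher, each mainly with a different inhibitor. Atf6 (mm9, chromosome 1, 172634588 to 172797902), which encodes the membrane-bound sensor, was at 145 CPM in the control for DMAT, 87.7 with DMAT, 131 in the control for CX4945 and 114 with CX4945. Both inhibitor libraries were below both controls, DMAT by far the lower. The ratio with DMAT was 1.65-fold lower (1.4 to 1.95) and with CX4945 1.15-fold lower (0.964 to 1.37), an interval that includes no difference. The joint log2 fold change was -0.47 ± 0.13 (SE), with an edgeR adjusted p of 0.0789. Against the other inhibitor's control the log2 ratio with DMAT was -0.57, just short of 1.5-fold.

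Xbp1 (chromosome 11, 5420662 to 5425896), the factor whose messenger IRE1 splices, was at 42.9, 45.6, 36.3 and 60.3 CPM in the same order. The CX4945 library was highest and its own control lowest. Xbp1 was 1.66-fold higher with CX4945 (1.25 to 2.22) and 1.06-fold with DMAT (0.815 to 1.38), and did not pass the joint fit (log2 0.40 ± 0.18, edgeR adjusted p = 0.579). Against the control for DMAT the log2 ratio with CX4945 was 0.48, under 1.5-fold. The counts are per gene and do not separate spliced from unspliced Xbp1. Ern1, which encodes the sensor IRE1, had 32, 24, 35 and 25 reads, with ratios of 0.817 (0.461 to 1.43) and 0.802 (0.46 to 1.38), so a difference was not detectable at this depth. With the controls exchanged its log2 ratio was -0.65 for DMAT, past 1.5-fold lower, and 0.08 for CX4945.

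Among the chaperones, Hspa5 went opposite ways with the inhibitors and its 4 values overlapped. Hspa5 (chromosome 2, 34627490 to 34632051), which encodes BiP, was at 828 CPM in the control for DMAT, 717 with DMAT, 684 in the control for CX4945 and 797 with CX4945. Both inhibitor libraries lay between the controls. With DMAT it was at 0.865 of its control (0.813 to 0.921) and with CX4945 at 1.16 (1.09 to 1.25), and the joint log2 fold change was 0.00 ± 0.09 (edgeR adjusted p = 0.997). The controls differed as much, with a ratio of 0.826 (0.774 to 0.881), and with the controls exchanged the log2 ratios were 0.07 for DMAT and -0.06 for CX4945.

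Hsp90b1, which encodes the ER member of the HSP90 family, was at 799 CPM in the control for DMAT and at 660, 638 and 621 in DMAT, the control for CX4945 and CX4945 (62.7% of its reads were unique). One control thus stood above the other 3 libraries. Its ratio was 0.825 with DMAT (0.774 to 0.88), 0.973 with CX4945 (0.902 to 1.05) and 0.798 between the controls (0.746 to 0.853). Hyou1, a large HSP70-like exchange factor for BiP, was at 234, 204, 229 and 220 CPM, below both controls with both inhibitors by small margins (joint log2 -0.13 ± 0.10, edgeR adjusted p = 0.859). Its ratio was 0.87 with DMAT (0.773 to 0.977) and 0.962 with CX4945 (0.846 to 1.09), where only the second interval includes no difference.

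For the remaining chaperones and co-chaperones the intervals of the ratios in both pairs include no difference. Dnajc3, an HSP40-type partner of BiP, was at 102, 94.3, 100 and 95.7 CPM, and Dnajb11, another, at 131, 141, 142 and 147. Manf, a secreted ER stress protein, was at 135, 135, 155 and 154, alike within each pair, with a ratio of 1.15 between the controls (0.991 to 1.33). Creld2, an ER stress gene with a role in disulfide exchange, was at 56.3, 49.1, 53.8 and 42.7 CPM, lowest with CX4945 (1.26-fold lower, 0.949 to 1.68). Sdf2l1, which works with the BiP cycle, was at 59.5, 73.1, 70.8 and 58.9 CPM, higher with DMAT and lower with CX4945 than their controls, and both ratios had intervals that include no difference (0.99 to 1.52 and 0.651 to 1.06). Dnajb9, a BiP partner induced through XBP1 and an inhibitor of IRE1, had 18, 30, 19 and 13 reads. Its ratio of 1.82 with DMAT had an interval of 0.98 to 3.46, and its log2 ratio of 0.79 was 0.47 against the other control.

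The lectin chaperones and the disulfide machinery stayed close to their controls. Calr was at 731, 716, 803 and 833 CPM, with ratios of 0.98 (0.92 to 1.04) and 1.04 (0.97 to 1.11), intervals that both include no difference. Canx, which encodes calnexin, was at 568, 548, 477 and 449 CPM, lower in both libraries of the CX4945 pair, with ratios of 0.964 (0.897 to 1.04) and 0.941 (0.861 to 1.03) in the pairs and 0.84 (0.777 to 0.908) between the controls. P4hb was at 500, 474, 477 and 498 CPM, the narrowest spread of the set, the highest 1.05 times the lowest. Pdia3, the isomerase that works with calnexin and calreticulin, was at 486, 456, 483 and 530 CPM. Its ratio with CX4945 was 1.1 (1.01 to 1.2) and with DMAT 0.94 (0.868 to 1.02).

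Pdia4 and Pdia6, further disulfide isomerases, had ratios of 0.913 (0.782 to 1.07) and 0.891 (0.808 to 0.983) with DMAT. With CX4945 they were 1.16 (0.975 to 1.37) and 0.902 (0.802 to 1.01). Ero1l, the oxidase that feeds them, was at 158, 147, 140 and 126 CPM, with joint log2 -0.13 ± 0.11. Ppib was at 188, 200 and, in the CX4945 pair, 164 and 177 CPM, of which 56.3% were unique reads. All 7 genes of this group had joint log2 fold changes between -0.16 and 0.36, the last that of Ero1lb, whose SE was 0.47.

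ER-associated degradation draws misfolded proteins out of the ER for the proteasome. The log2 ratios of its tested genes ran from -0.55 (Herpud1) to 0.51 (Edem2) with DMAT. For CX4945 they ran from -0.02 (Derl1) to 0.55 (Os9). With CX4945, 1 of the 9 tested was lower than the control and with DMAT 5 of 9, where 49.4% of all genes were in each pair, and the medians were 0.13 and -0.06. Edem1 (chromosome 6, 108778635 to 108809350), a lectin that picks out misfolded glycoproteins, was at 148, 177, 145 and 171 CPM. The controls were alike, and both inhibitor libraries lay above both. It was 1.2-fold higher with DMAT (1.05 to 1.38) and 1.18-fold with CX4945 (1.01 to 1.38), but did not pass the joint fit (log2 0.25 ± 0.11, edgeR adjusted p = 0.509).

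Herpud1 (chromosome 8, 96910338 to 96919277), a scaffold of the degradation complex and a strong UPR target, was at 69.6 CPM in the control for DMAT and at 47.2, 44.6 and 53.5 in DMAT, the control for CX4945 and CX4945. As with Hsp90b1, the control for DMAT stood above the rest. It was 1.48-fold lower with DMAT (1.17 to 1.87), but the log2 ratio was 0.08 against the other control, in place of -0.55. Derl1 (chromosome 15, 57701057 to 57723973), a membrane channel protein, was at 150, 109, 151 and 150 CPM, so that DMAT stood alone. It was 1.38-fold lower with DMAT (1.18 to 1.61), with a log2 ratio of -0.46 that was -0.47 against the other control, and at a ratio of 0.99 with CX4945 (0.846 to 1.16). The joint fit, which averages both, gave -0.24 ± 0.12 (edgeR adjusted p = 0.646), with 76.3% of reads unique.

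**Figure D4:**
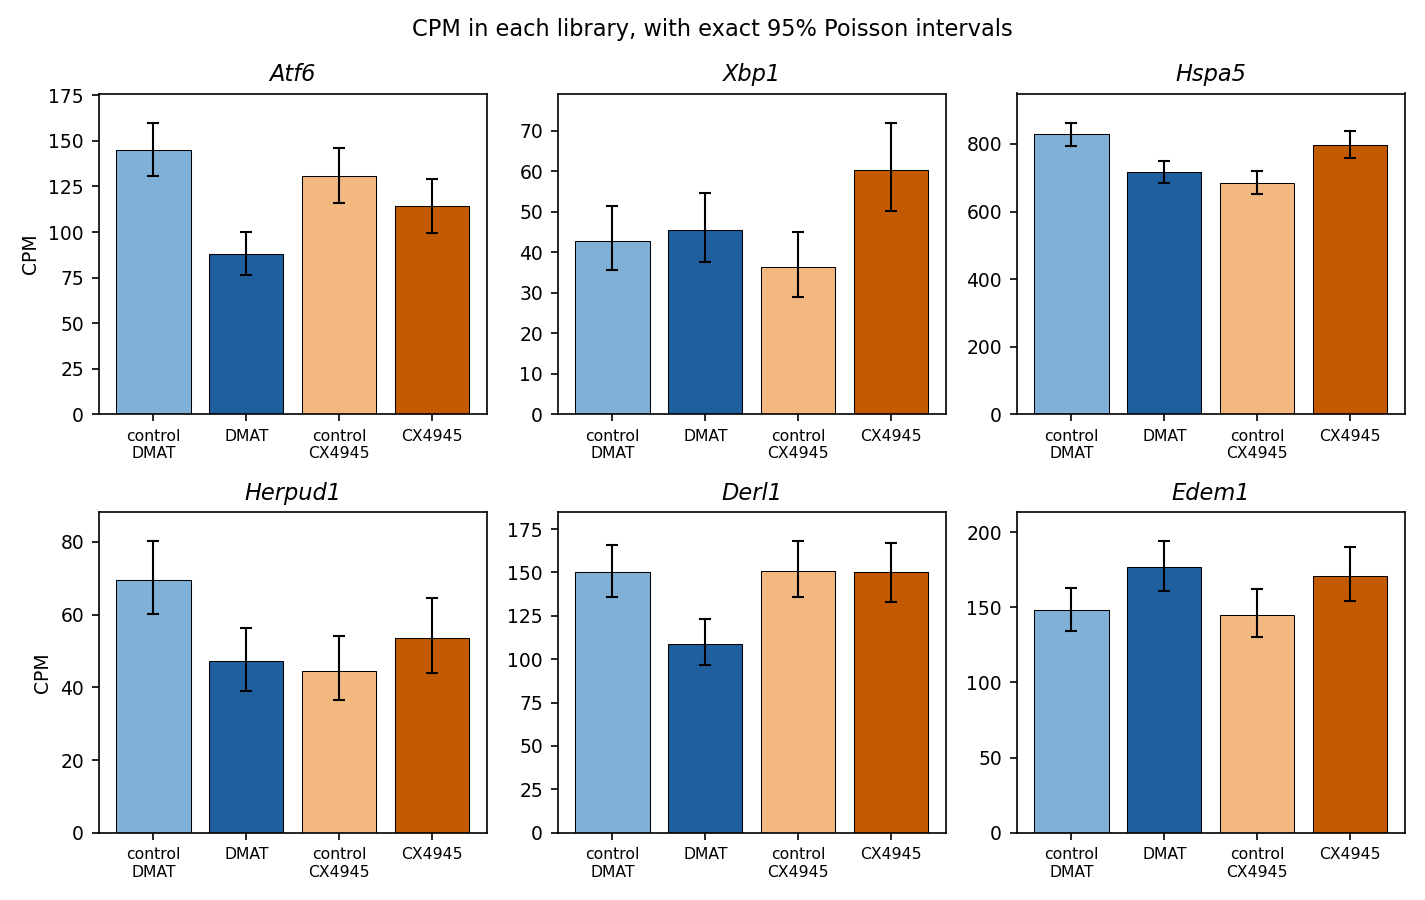
CPM of 6 members in each library, with exact 95% Poisson intervals that cover counting error only. Atf6 and Derl1 are lowest with DMAT, Xbp1 is highest with CX4945, Edem1 is higher in both inhibitor libraries, and Hspa5 and Herpud1 are highest in the control for DMAT.

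Os9, a lectin that hands glycoproteins to the degradation complex, was at 55.2, 53.1, 56.8 and 83.4 CPM. The CX4945 library stood apart, 1.47-fold above its control (1.16 to 1.86), and the joint fit gave log2 0.25 ± 0.16 (edgeR adjusted p = 0.802). Edem2, a mannosidase-like relative of Edem1, was at 23.8, 34.2, 35.4 and 38.8 CPM, lowest in the control for DMAT. Its ratio with DMAT was 1.44 (1.03 to 2.01), while the log2 ratio was -0.05 against the other control. Edem3 had ratios of 0.831 (0.649 to 1.06) and 1.23 (0.921 to 1.64).

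The ubiquitin ligase Syvn1 and its partner Sel1l, which form the core of the degradation complex, were level. Syvn1 was at 54.8, 57.0, 62.5 and 65.7 CPM and Sel1l at 88.8, 84.1, 84.8 and 90.8. Derl2 had ratios of 1.2 (0.961 to 1.51) and 1.06 (0.831 to 1.35). Derl3, with 5 reads at most, allows no comparison.

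The pair ratios of the 5 translocation genes had intervals that include no difference, except that of Ssr3 with DMAT. Sec61a1, the channel itself, was at 288, 290, 326 and 337 CPM, with ratios of 1.0 (0.908 to 1.11) and 1.04 (0.932 to 1.15). Sec61b, its small subunit, was at 71.4, 80.6, 76.9 and 86.8 CPM (48.8% of reads unique), above both controls with both inhibitors but with intervals that include no difference (0.923 to 1.38 and 0.911 to 1.4). Of the translocon-associated proteins, Ssr1 was at 248, 265, 231 and 227 CPM and Ssr2 at 152, 160, 141 and 135. Ssr3 was at 284, 254, 223 and 225 CPM, lower in both libraries of the CX4945 pair than in the other 2 (control ratio 0.788, 0.703 to 0.881). Its ratio with DMAT was 0.897 (0.807 to 0.996) and with CX4945 1.01 (0.887 to 1.15). The joint log2 fold changes of these 5 genes lay between -0.08 and 0.17.

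Members with and without an ERSE or ERSE-II in the window are set side by side. The 11 with one that entered had a median log2 ratio of -0.11 with DMAT (-0.55 to 0.30), 8 of them lower, and 0.05 with CX4945, 5 lower. The 18 matched members without one had medians of 0.02 with DMAT (-0.27 to 0.79), 9 lower, and 0.11 with CX4945, 5 lower. In each pair 49.4% of all genes were lower. For the control for CX4945 over that for DMAT the medians were -0.07 with an element and -0.05 without. There 7 of the 11 and 11 of the 18 were lower, where 50.7% of all genes were. Neither group holds Atf6, Hyou1, Manf, Derl1, Sec61a1 and Ssr2, for which no window was matched, and Atf6 and Derl1 were among the lowest members with DMAT (-0.72 and -0.46). Among genes outside the set, 37 held an ERSE or ERSE-II and 9 of these had enough reads, with medians of 0.02 and 0.07. These are descriptions with no test. Alg12, an ER mannosyltransferase, and Krtcap2, a subunit of the oligosaccharyltransferase, were among the 9. The log2 ratios of Alg12 were 0.26 (DMAT) and 0.16 (CX4945), and those of Krtcap2 were -0.34 and 0.26.

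Other genes of the ER pathway were taken from 6 fixed lists, and 0 of the 116 tested passed the joint fit (edgeR), also 0 with DESeq2, where 0.95% of all genes did with edgeR. At an unadjusted p under 0.05 were 5 of the 116, where 7.75% of all genes were, with a median joint log2 fold change of -0.01. The median log2 ratios of the lists lay between -0.05 and 0.15 in both pairs, except for the list named for the PERK branch. Through that branch PERK halts translation and raises Atf4, but its genes were listed by name and PERK activity was not measured. In that list 10 of 10 genes were lower with DMAT (median -0.51) and 5 of 8 with CX4945 (median -0.01). Of all genes 49.4% were lower in each pair. At least 1.5-fold lower were 4 of the 10 with DMAT, where 4.85% of all genes were, and 1 of the 8 with CX4945, where 4.21% were, Sesn2 at a ratio of 0.61 (0.433 to 0.853). The control for CX4945 was lower than that for DMAT in 10 of 10 as well, where 50.7% of all genes were, with a median of -0.52. Atf4 was at 529, 366, 362 and 357 CPM (1467, 931, 829 and 728 reads). Trib3, a target of ATF4, was at 24.5, 6.29, 2.19 and 5.4 CPM (68, 16, 5 and 11 reads). The control for DMAT was the highest library for both. Whether the PERK list differs with DMAT cannot be told apart from the own level of the control for DMAT. The lowest joint value was that of Sesn2, a stress-induced regulator of growth signalling (-0.45 ± 0.17, edgeR adjusted p = 0.366), and the highest that of Ppp1r15b, which helps to reverse the block on translation (-0.02 ± 0.10, 0.989).

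Of 12 further sensors and regulators tested, Wfs1, an ER membrane protein, had the highest joint value, with 12, 17, 7 and 19 reads (1.06 ± 0.47, edgeR adjusted p = 0.545), and Bet1, a SNARE of transport from the ER to the Golgi, the lowest (-0.33 ± 0.28, 0.885). The medians of the list were 0.00 with DMAT and 0.15 with CX4945, and 1 of the 12 was lower with CX4945, where 49.4% of all genes were. Eif2ak3, which encodes PERK, had 60, 68, 48 and 47 reads, with log2 ratios of 0.29 and 0.13. Of 25 further folding genes, Cnpy3 stood highest (0.40 ± 0.31, 0.873, with 38.9% of reads unique) and Sdf2 lowest (-0.31 ± 0.23, 0.849).

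Among 22 other degradation genes the joint values ran from -0.30 ± 0.15 for the ubiquitin-conjugating enzyme gene Ube2g2 to 0.31 ± 0.15 for Ubxn6, a cofactor of the VCP ATPase, both with an edgeR adjusted p of 0.646. Among 30 genes of translocation and glycosylation they ran from -0.39 ± 0.19 for Sec11c, a subunit of the signal peptidase (0.641), to 0.19 ± 0.22 for Sec61g (0.937, with 15.0% of reads unique). Among 20 genes of the COPII vesicles that leave the ER they ran from -0.39 ± 0.28 for Sec23a (0.839) to 0.87 ± 0.43 for Sec24d (0.656). Sec24d, a cargo adaptor of the COPII coat, was past 1.5-fold higher with both inhibitors, by log2 0.84 and 0.70, on 13, 23, 11 and 17 reads.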

How the data were processed

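The authors' deposited tables gave whole-number counts per feature, and total exon reads, which include reads with more than 1 match, were used. The submitters' processing notes list the mm9 build and CASAVA 1.8.2. The libraries were made from total RNA with a TruSeq kit, per the labels' protocols. The aligner, annotation, counting rule and read strand are not given in the sources used here.

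Counts were scaled with TMM factors (0.991 to 1.008; edgeR 4.0.16, R 4.3.3). Log2 ratios of CPM used a prior count of 2, and folds used none. Ratio intervals are exact conditional (Clopper-Pearson) 95% intervals. Intervals cover counting error only. A pair has 1 library per arm, so its ratios carry no p-value. The joint fit was edgeR's quasi-likelihood test on genes with at least 20 reads in both pairs, with the pair as a block, because the titles pair each inhibitor with a control; the labels do not say whether the pairs were separate experiments. As a check of the pairing, the log2 ratio of one pair to the other in the controls correlated with that in the inhibitor libraries (r = 0.425 across 6969 deeply read genes, which are not replicates). Its SE is the log2 fold change divided by the square root of F, not a spread between replicates, and since nothing says that cultures or animals were separate, p-values cover only library-to-library spread, perhaps technical. DESeq2 1.42.0 was an alternative. No library was a duplicate: chi-square per degree of freedom was 2.09 or more in each couple of libraries. The code of the fit was tried on simulated counts with known changes. These had no difference between the pairs and the same spread for all genes, so they do not measure the error of the fit here.

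The members and lists were chosen with earlier results of these data known, and the 1.2-fold bound and the 200-read background after the data were seen. Named beside the members were list genes that passed, that were 1.5-fold the same way with both inhibitors, or that had the highest or lowest joint value of their list, with Atf4, Trib3, Eif2ak3, Alg12 and Krtcap2 added after their values were seen.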

Additional observations from a re-analysis of the deposited data

Results flagged for a closer look

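Hspa5 was noted because its counting intervals lay on opposite sides of no difference in the 2 pairs, with log2 ratios of -0.21 for DMAT and 0.22 for CX4945 over their controls. The inhibitors differed in dose as well as compound and each had its own control, and the difference between the ratios was not tested. Both values were smaller in size than the difference of the controls, which was -0.28, and both came close to 0 against the other control (0.07 and -0.06).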

How the results depend on the processing

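Of 1111 values for single members under the alternatives, 0 that were past 1.5-fold or passed the test changed sign, and 1045 stayed within their counting interval or on the same side of the test. A changed sign was counted only for those values, which were few. Another read minimum leaves a member's pair ratio as it is, so those ratios could not move. Smaller ratios did change sign with the controls exchanged, among them Herpud1 (-0.55 to 0.08) and Edem2 (0.51 to -0.05) with DMAT. Of 112 counts and medians under the alternatives, 85 stayed the same or close and 27 moved. Atf6 passed the joint fit with unique exon reads (log2 -0.47, adjusted p = 0.0167) and with a minimum of 1 read (log2 -0.47, 0.0463). Its adjusted p ran from 0.0167 to 1 over the alternatives, and its log2 value from -0.65 to -0.28 when a library was left out. Thus 1 member fell under each of these 2 settings, in place of 0. Without the replicate block 0 genes rose and 1 fell over all genes, in place of 35 and 53, and with DESeq2 and the block 2 rose and 1 fell. Leaving out each library in turn, without the block, gave 0 to 16 that rose (6 without DMAT and 6 without the control for CX4945) and 1 to 24 that fell. The block changed no call among the members.

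With the controls exchanged the median of the members was 0.04 for DMAT and -0.01 for CX4945, and 1 member was 1.5-fold lower with DMAT, Ern1 (-0.65) in place of Atf6 (-0.57). Under that exchange 0 members were 1.5-fold higher with DMAT and 2, Edem2 and Os9, with CX4945. At 2-fold 0 members were higher or lower with DMAT, higher with CX4945, or lower between the controls, in place of 1 each. A minimum of 100 reads gave 0 higher with DMAT and a median of -0.07 between the controls. Unique reads gave 2 lower with DMAT, the second being Herpud1, at a log2 ratio of -0.59 in place of -0.55. A minimum of 1 read gave 2 higher with CX4945 and 2 lower between the controls, the second being Derl3. The cause of the other shifts was not tested. Depth limits Ern1, Dnajb9, Ero1lb and Derl3, since 3 counts are worth 1.08 to 1.47 CPM per library.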
